A study of Mus musculus with 8 samples.

Results

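The genes described here are the Notch receptors Notch1, Notch2, Notch3 and Notch4, the ligands Jag1, Jag2, Dll1 and Dll4, and the target genes Hes1 and Hey1, in the lungs of mice injected with naphthalene and of control mice. They were taken from the count table by gene symbol alone, which found all 10 among 22244 genes. The study sequenced total RNA of the right cranial lung lobe from 4 naphthalene-injected and 4 control mice, with 1 library per mouse. All were adult males of the inbred C57BL/6J strain, and the labels describe the control mice as having had no treatment. Naphthalene harms the mouse airway because its club cells convert this hydrocarbon to toxic products, and it is used to injure the airway epithelium. The sources used here give neither its dose nor a vehicle nor the interval before sampling, so effects of the injection itself cannot be told apart from those of naphthalene.

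Notch receptors are single-pass membrane proteins that are cut when a Jagged or Delta-like ligand on a neighbouring cell binds them. The freed intracellular domain enters the nucleus, joins the DNA-binding protein RBPJ and a Mastermind co-activator, and switches on genes such as Hes1 and Hey1, which encode basic helix-loop-helix repressors. In the airway the pathway favours secretory over ciliated and neuroendocrine cell fate, and in blood vessels it takes part in arterial identity, sprouting and the upkeep of mural cells.

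Total counts ranged from 11233709 to 16792306 in the naphthalene libraries and from 10743842 to 13518183 in the controls. All 10 genes had enough reads to be tested among 14192 genes, and the lowest count of any of them in any library was 233, for Jag2. The lung identity of the tissue was evident from the surfactant gene Sftpc, which averaged 6502 CPM after naphthalene and 6452 CPM in controls (CPM, read counts scaled to a common library size with the TMM method). Scgb1a1, the secretoglobin gene of club cells, was lower, averaging 1325 CPM after naphthalene and 4785 CPM in controls.

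Dll1 rose and Jag1 fell after naphthalene, and the other 8 genes did not pass the test. Thus 2 of the 10 passed an adjusted p of 0.05 in edgeR's quasi-likelihood test, or 1 in each direction, beside 28.7% of all tested genes (14.1% higher and 14.6% lower). The values of the 2 groups did not overlap for 3 of the 10 genes (Dll1, Jag1 and Notch2), beside 28.6% of all tested genes. The median log2 fold change of the 10 was -0.30, against 0.01 over all tested genes. Since whole lobes were sequenced, fewer cells of a type and less RNA per cell cannot be told apart in any of these values.

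**Figure D1:**
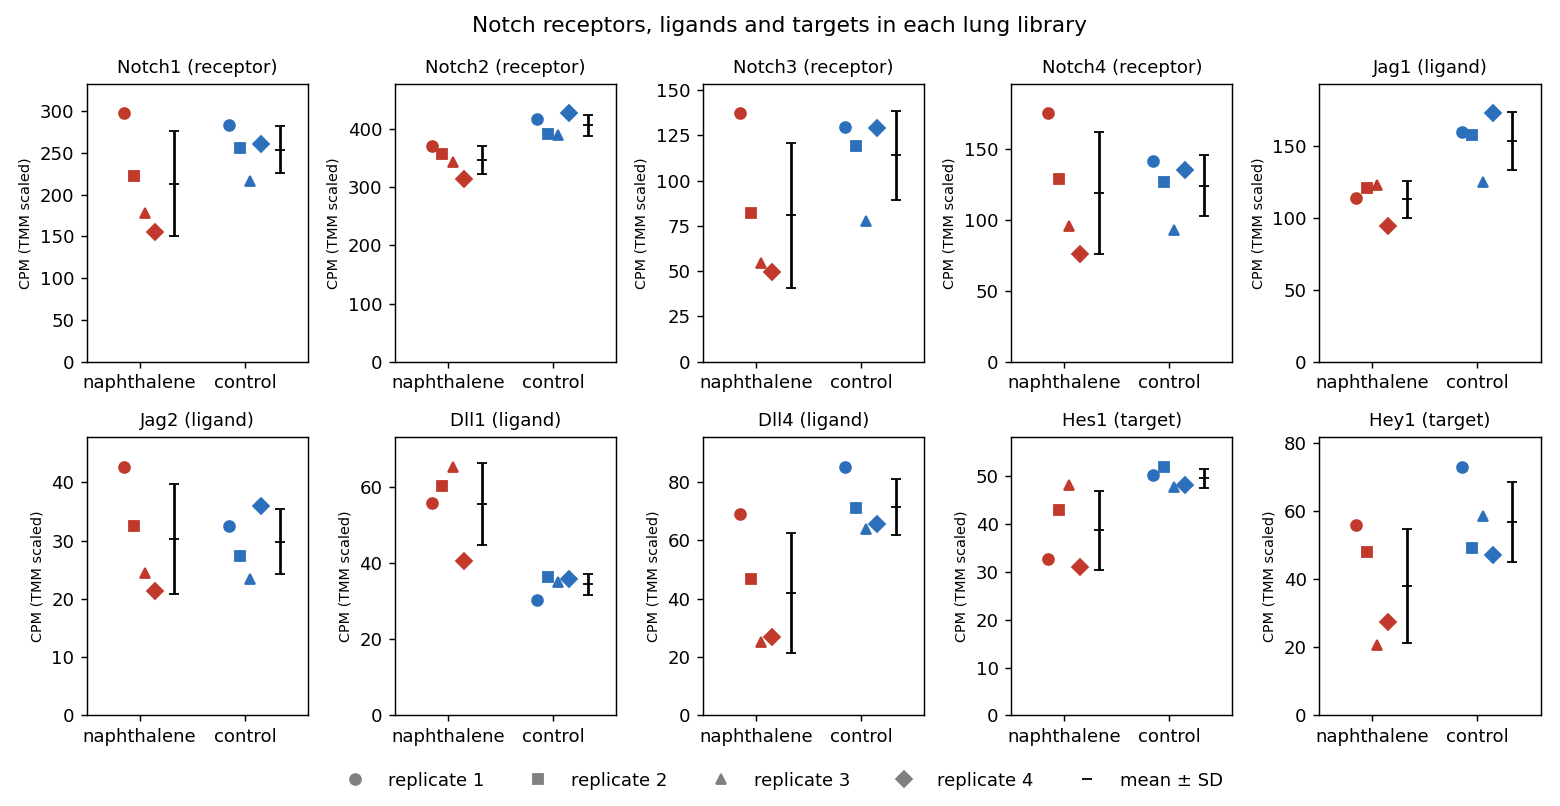
CPM with TMM scaling (vertical axis, from 0) of the 10 genes in each of the 4 naphthalene and 4 control libraries, with the group mean ± SD in black and marker shapes for replicates. Dll1 lies higher in all naphthalene libraries and Jag1 and Notch2 lie lower, whereas in Notch1, Notch3, Notch4, Jag2, Dll4 and Hey1 naphthalene 1 is the highest naphthalene library.

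Among the ligands, Dll1 encodes a Delta-like transmembrane ligand. It stood at 56.0, 60.4, 65.4 and 40.6 CPM in naphthalene libraries 1 to 4, against 30.3, 36.5, 35.1 and 36.0 CPM in controls 1 to 4. Every naphthalene library lay above every control, with naphthalene 4 the closest to them. Its mean was 55.6 ± 10.7 CPM after naphthalene and 34.5 ± 2.84 CPM in controls (SD, n = 4 per group). The log2 fold change was 0.69 with an SE of 0.16 (edgeR adjusted p = 0.00431). Leaving out each library in turn kept the call, with log2 fold changes of 0.60 to 0.81 and adjusted p up to 0.0178 in edgeR.

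Some markers of neuroendocrine cells, an airway cell type that carries Delta-like ligands, were higher as well. Of their 5 listed genes 3 could be tested, of which 2 rose, and the 5 summed to 21.8 to 30.5 CPM after naphthalene and 5.83 to 7.33 CPM in controls. Uchl1, a ubiquitin hydrolase gene, averaged 16.7 CPM after naphthalene and 2.09 CPM in controls, and Calca, which encodes calcitonin gene-related peptide, averaged 5.99 CPM after naphthalene and 1.26 CPM in controls. Uchl1 thus held most of the mean sum after naphthalene, which was 25.8 CPM. Syp, the other gene tested, did not pass, at 2.84 CPM after naphthalene and 2.92 CPM in controls. The list's Resp18 was listed at 0 in every library, and Chga was too low to test. Their part in the Dll1 result was not tested.

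Jag1, a Jagged ligand gene expressed in both vessels and airways, was at 113, 121, 122 and 94.3 CPM after naphthalene, against 159.7, 157, 125 and 172 CPM in controls. The groups did not overlap, although control 3 lay within 3 CPM of the highest naphthalene library. The mean was 113 ± 12.9 CPM after naphthalene and 154 ± 20.1 CPM in controls, a log2 fold change of -0.45 (SE 0.13, n = 4 per group, edgeR adjusted p = 0.0164). The call was lost without control 4, at a log2 fold change of -0.39 and an adjusted p of 0.0585 in edgeR.

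Dll4, the Delta-like ligand of endothelial cells, had the log2 fold change of largest size among the 10 genes, yet it did not pass the test. Naphthalene libraries 1 to 4 held 69.0, 46.6, 25.1 and 27.0 CPM, against 85.2, 71.3, 64.1 and 65.7 CPM in the controls. Naphthalene 1 lay among the controls, and the other naphthalene libraries lay below all of them. Its means were 41.95 ± 20.5 CPM after naphthalene and 71.6 ± 9.58 CPM in controls (SD, n = 4 per group). The log2 fold change was -0.76 with an SE of 0.36 (edgeR adjusted p = 0.0576). Without naphthalene 1 the log2 fold change was -1.11 and passed (edgeR adjusted p = 0.00163), and over all libraries Dll4 also passed with, among other settings, DESeq2 (adjusted p = 0.0218), limma voom (0.0331) and edgeR with no filter on low counts (0.0438).

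Jag2, the second Jagged gene, gave 42.6, 32.5, 24.5 and 21.3 CPM after naphthalene, against 32.5, 27.4, 23.4 and 36.0 CPM in controls. The groups overlapped over most of their ranges, with a log2 fold change of 0.03 (SE 0.26, edgeR adjusted p = 0.936), whose sign turned under upper quartile scaling and when any of 4 single libraries was left out.

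Promoter windows of the 2 ligand genes that passed and of Dll4 are shown because these 3 genes carry the largest group differences among the ligands. Each holds 250 bases before and 50 bases after an annotated RefSeq start on GRCm38.p6, a different build from the mm39 named for the counts, and is written 5′ to 3′ on the strand of the gene. RefSeq windows matched 8 of the 10 genes, all but Hes1 and Hey1, with 9 windows because Dll1 has 2. Capitals mark the letters CCAAT or their reverse complement ATTGG, the box bound by NF-Y.
Dll1, chr17:15375774-15376073, minus strand: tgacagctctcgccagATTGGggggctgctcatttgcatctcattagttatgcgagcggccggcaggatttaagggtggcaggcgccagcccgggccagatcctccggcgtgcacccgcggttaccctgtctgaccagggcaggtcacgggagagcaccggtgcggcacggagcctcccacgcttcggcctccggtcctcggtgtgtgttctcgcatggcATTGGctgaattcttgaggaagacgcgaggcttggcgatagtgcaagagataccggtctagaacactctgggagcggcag
Dll4, chr2:119325534-119325833, plus strand: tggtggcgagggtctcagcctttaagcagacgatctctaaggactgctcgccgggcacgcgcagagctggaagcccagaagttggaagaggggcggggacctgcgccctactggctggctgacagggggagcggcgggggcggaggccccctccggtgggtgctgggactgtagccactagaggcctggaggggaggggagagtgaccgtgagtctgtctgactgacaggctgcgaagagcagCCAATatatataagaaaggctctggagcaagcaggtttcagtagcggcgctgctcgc
Jag1, chr2:137116471-137116770, minus strand: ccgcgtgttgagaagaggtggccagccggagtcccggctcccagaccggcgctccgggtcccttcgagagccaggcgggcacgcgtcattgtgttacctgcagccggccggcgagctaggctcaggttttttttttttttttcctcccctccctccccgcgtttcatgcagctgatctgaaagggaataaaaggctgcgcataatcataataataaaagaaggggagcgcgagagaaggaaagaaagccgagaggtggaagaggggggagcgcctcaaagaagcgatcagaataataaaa
The Dll1 window shown holds 2 such boxes, from positions 17 and 221 of the window, and the Dll4 window holds 1, from position 244. The Jag1 window and the window at the other annotated Dll1 start, chr17:15376883-15377182 with a GC content of 56.3%, hold 0. The box was found on either strand in 37.4% of 32851 RefSeq windows of this length. TGGGAA, the core that RBPJ recognises, was found on neither strand in any of the 9 windows, beside 25.6% of all windows. TGACTCA, the AP-1 site, was found in that of Notch4 alone (5.20% of all windows), and CACGTG, an E-box, in none of the 9 (7.15% of all windows). Among the windows shown the GC content was 62.7% for Dll1, 63.7% for Dll4 and 55.7% for Jag1, against a median of 52.7% over all windows. These matches describe letters in a short window and say nothing of whether a factor binds there or elsewhere.

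Among the receptors, none of 4 passed. Notch2, a receptor expressed in epithelial, stromal and immune cells, held 371, 356, 343 and 314 CPM in the naphthalene libraries and 416, 391, 389.7 and 426 CPM in controls. All naphthalene libraries lay below all controls, and the spread within each group was small. Notch2 had a log2 fold change of -0.23 (SE 0.06, edgeR adjusted p = 0.0752). It passed with DESeq2 (adjusted p = 0.0240), with upper quartile scaling (0.0467) and without naphthalene 1 (0.0438).

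Notch1, the receptor with broad roles in endothelium, epithelium and T cell development, stood at 297, 222, 178 and 155 CPM after naphthalene, against 283, 255, 216 and 261 CPM in controls. Naphthalene 1 was the highest of all 8 libraries, while naphthalene 3 and 4 were the lowest. Its log2 fold change was -0.25 (SE 0.22, edgeR adjusted p = 0.317), and -0.45 without naphthalene 1, where it passed (edgeR adjusted p = 0.0209).

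Notch3, the receptor of vascular smooth muscle cells and pericytes, gave 137, 82.3, 54.3 and 49.4 CPM after naphthalene and 129.9, 119, 77.8 and 129.0 CPM in controls. Naphthalene 1 again lay above every control, and naphthalene 3 and 4 lay below every one. Its log2 fold change was -0.49 (SE 0.38, edgeR adjusted p = 0.226), and it passed without naphthalene 1 at -0.87 (edgeR adjusted p = 0.00716). Among mural cell markers, the 8 pericyte genes summed to 538 to 747 CPM after naphthalene and 726 to 881 CPM in controls. Of 7 tested 1 was higher and 1 lower, and Rgs5 was listed at 0 in every library. Most of the difference in the mean sum lay in Postn, the gene called lower, at 302 CPM after naphthalene and 471 CPM in controls. The gene called higher was Kcnj8, at 11.5 CPM after naphthalene and 6.71 CPM in controls. The 8 smooth muscle genes summed to 448 to 794 CPM after naphthalene and 549 to 850.1 CPM in controls, with 0 of 6 passing and Des and Lmod1 listed at 0. Their part in the Notch3 values was not tested.

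Notch4, a receptor largely of endothelial cells, was at 175, 129, 95.8 and 76.2 CPM after naphthalene, against 141, 127, 93.2 and 136 CPM in controls. The naphthalene values spanned beyond the control range at both ends. Its log2 fold change of -0.06 (SE 0.29, edgeR adjusted p = 0.871) turned positive without control 1, naphthalene 3 or naphthalene 4, and did not pass with any 1 library left out.

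Neither target gene passed. Hes1, a repressor that keeps progenitor and secretory cells from neuroendocrine and other fates, held 32.6, 43.0, 48.2 and 30.9 CPM after naphthalene, against 50.3, 52.0, 47.8 and 48.3 CPM in controls. The controls were tightly grouped, and only naphthalene 3 reached their range. Its log2 fold change was -0.36 (SE 0.16, edgeR adjusted p = 0.0757), and it passed without naphthalene 3 at -0.48 (edgeR adjusted p = 0.0225). Markers of club and ciliated cells, airway cells whose fate the pathway sets, were mostly lower in the same lungs. Some neuroendocrine cell markers, given above, were higher. The 8 club cell markers, all of which fell, summed to 1313 to 3115 CPM after naphthalene and 5717 to 11503 CPM in controls. Of 8 ciliated cell markers 7 fell, with sums of 95.3 to 184 CPM after naphthalene and 518 to 814 CPM in controls. None of these 16 markers was at 0, and their part in the Hes1 and Jag1 values was not tested.

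Hey1, a related repressor active in endothelium, gave 56.1, 48.0, 20.8 and 27.4 CPM after naphthalene, against 73.1, 49.3, 58.5 and 47.1 CPM in controls. Naphthalene 1 and 2 lay within the control range, with naphthalene 3 and 4 below it. This gave a log2 fold change of -0.57 (SE 0.36, edgeR adjusted p = 0.141) and of -0.82 without naphthalene 1 (edgeR adjusted p = 0.0253).

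**Figure D2:**
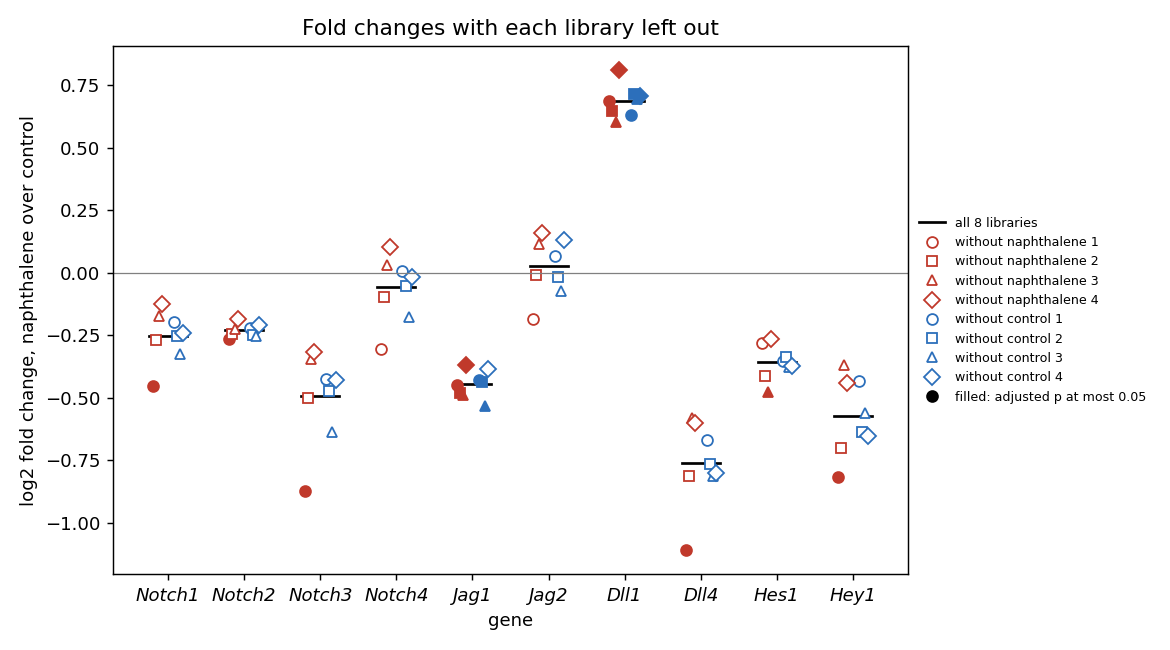
Log2 fold change of each gene (vertical axis, naphthalene over control) with all 8 libraries (black line) and with each library left out (symbols; red for a naphthalene and blue for a control library), filled where the adjusted p is at most 0.05. Dll1 is filled in all 8 cases and Jag1 in 7, whereas Notch1, Notch2, Notch3, Dll4 and Hey1 are filled only without naphthalene 1.

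How many genes passed changed with the libraries, scaling, filter, model and tool, and most when naphthalene 1 was left out. Without naphthalene 1, 7 of the 10 passed, namely Dll1 as higher and Notch1, Notch2, Notch3, Jag1, Dll4 and Hey1 as lower, and 35.5% of all tested genes passed in that fit. The same 7 passed when control 3 was left out as well, a choice made after seeing the data, beside 37.5% of all tested genes in that fit. Naphthalene 1 was the highest naphthalene library for 7 of the 10 genes, and the ratio of the highest to the lowest library was wider among naphthalene libraries than among controls for 9 of the 10, all but Jag1. For Notch3 that ratio was 2.78 after naphthalene and 1.67 in controls. For Dll4 it was 2.75 after naphthalene and 1.33 in controls, and for Hey1 2.70 after naphthalene and 1.55 in controls.

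Endothelial markers also differed among the naphthalene libraries. The 10 listed genes, among them the junction genes Pecam1 and Cdh5, summed to 4115, 3215, 2401 and 2073 CPM in naphthalene libraries 1 to 4, against 3539, 3845, 3259 and 3309.6 CPM in controls. Naphthalene 1 was above all controls and the other naphthalene libraries were below all of them. Naphthalene 2, at 3215 CPM, was just below the lowest control at 3259 CPM, and for Notch1 and Notch3 it lay within the control range. Of the 10 genes only Kdr, the main VEGF receptor gene, passed, as lower, and none was at 0. The total counts of the naphthalene libraries, 16792306, 15454146, 11798360 and 11233709, fall in the same order. Sums of other marker lists changed along this order too. The fibroblast sums fell, at 1485, 1355, 1274 and 1061 CPM in naphthalene libraries 1 to 4, and so did the pericyte sums. The alveolar macrophage sums rose, at 549, 718, 1206 and 1359 CPM, and so did the alveolar type 2 sums. The part of endothelial or other cell content or of depth in the Notch values was not tested.

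Each gene was therefore also set against that endothelial sum within its own library, a description chosen after seeing the data. Notch1 amounted to 7.25% ± 0.262 of the endothelial sum after naphthalene and 7.29% ± 0.755 in controls (SD, n = 4 per group), so that the naphthalene libraries lay closer together than the controls. The shares of Jag2 were also closer together after naphthalene, at 1.01% to 1.04% after naphthalene and 0.712% to 1.09% in controls. For Notch4 the SD of the share was 0.239 after naphthalene and 0.587 in controls. It was likewise smaller for Notch3 (0.482 after naphthalene, 0.674 in controls) and Hey1 (0.273 after naphthalene, 0.356 in controls). Notch2, Jag1, Hes1, Dll1 and Dll4 lay farther apart after naphthalene. The share of Notch2 was 9.02% to 15.1% after naphthalene and 10.2% to 12.9% in controls. That of Jag1 was 2.76% to 5.10% after naphthalene and 3.84% to 5.21% in controls, and that of Hes1 was 0.793% to 2.01% after naphthalene and 1.35% to 1.47% in controls. For Dll4 the share was 1.68%, 1.45%, 1.05% and 1.30% in naphthalene libraries 1 to 4, against 2.41%, 1.85%, 1.97% and 1.99% in controls. In this measure all 4 naphthalene libraries lay below all controls for Dll4, and for Dll1 all 4 lay above them, at 1.36% to 2.72% after naphthalene and 0.856% to 1.09% in controls. The groups overlapped for the other 8 genes. The measure was computed for the Notch members alone, so no share over all tested genes can be set beside this count.

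**Figure D3:**
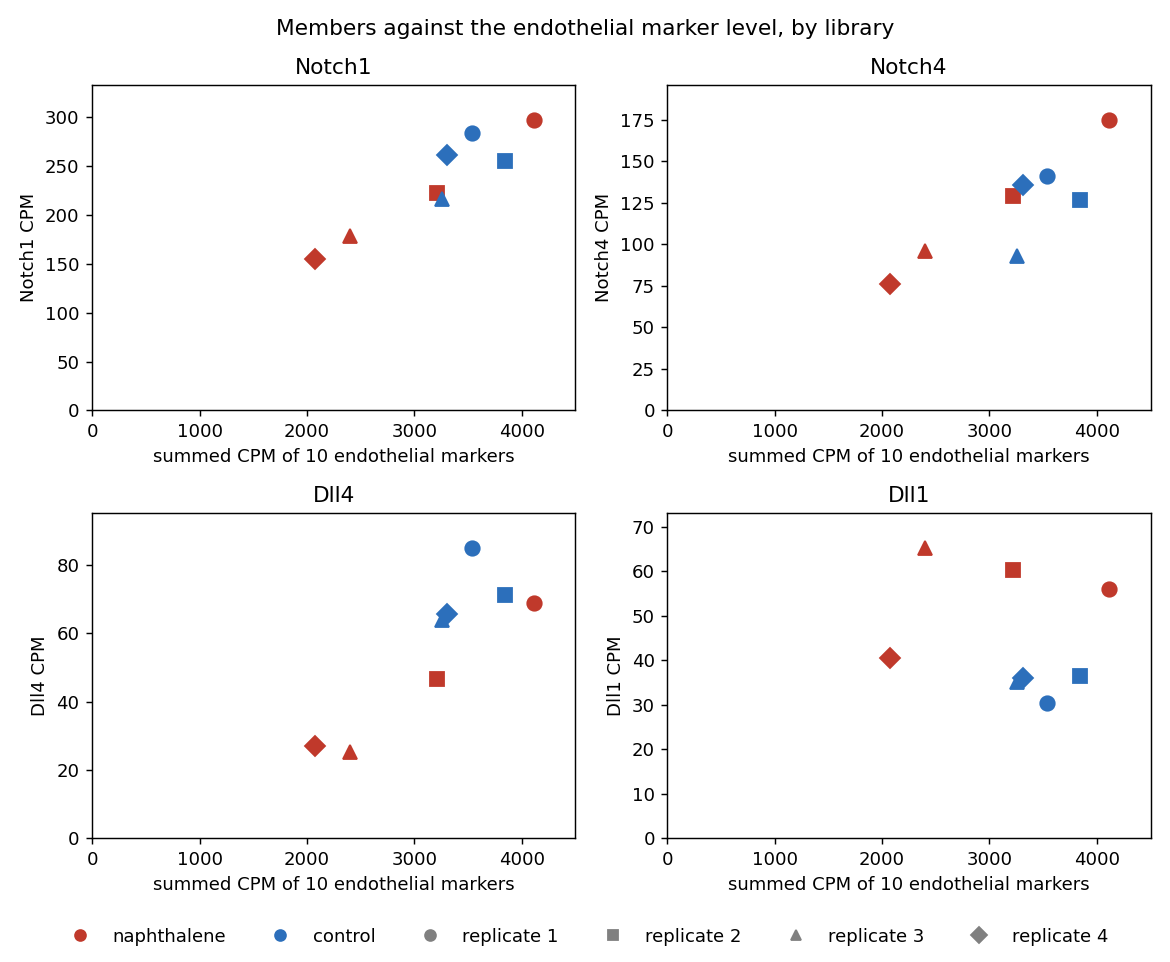
CPM of Notch1, Notch4, Dll4 and Dll1 (vertical axes) against the summed CPM of 10 endothelial markers (horizontal axes) in each library, red for naphthalene and blue for control, with shapes for replicates. Notch1 is lowest in naphthalene 4 at 155 CPM and highest in naphthalene 1 at 297 CPM, which are also the ends of the endothelial range, and Dll1 is higher in all naphthalene libraries than in any control.

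Arterial endothelial markers, named because Dll4, Notch1 and Hey1 act in arterial cells, were mostly lower. Of 7 tested 6 fell, beside 14.6% of all tested genes called lower. The 8 listed genes summed to 908 to 1001 CPM after naphthalene and 1101 to 1238 CPM in controls. Sox17 was listed at 0 in every library. Mgp, the tested gene that did not pass, averaged 508 CPM after naphthalene and 419 CPM in controls. It was the largest single term of the mean sum in both groups. Gja5, an arterial connexin gene, averaged 32.9 ± 12.8 CPM after naphthalene and 54.5 ± 3.44 CPM in controls, and Bmx, an endothelial kinase gene, averaged 13.7 ± 2.60 CPM after naphthalene and 22.2 ± 3.33 CPM in controls (SD, n = 4 per group). Of 7 fibroblast markers tested 3 fell too. The part of arterial cells or fibroblasts in the Dll4 and Hey1 values was not tested.

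Ratios within a library do not depend on scaling between libraries. The log2 ratio of Dll4 to Dll1 was 0.30, -0.37, -1.36 and -0.58 in the naphthalene libraries, against 1.48, 0.96, 0.86 and 0.86 in controls. Dll4 reads exceeded Dll1 reads in every control and in naphthalene 1 only among the naphthalene libraries. The difference was -1.54, with an exact 2-sided permutation p of 0.0286, the smallest that 70 assignments allow, and an adjusted p of 0.171 over the 6 ratios tested. Jag1 to Jag2 had a mean log2 ratio of 1.92 ± 0.39 after naphthalene and 2.36 ± 0.12 in controls (SD, n = 4 per group, exact permutation p = 0.0857). Hey1 to Hes1 differed by -0.29, Notch2 to Notch1 by 0.058, Notch3 to Notch1 by -0.30 and Notch4 to Notch1 by 0.18, with exact permutation p of 0.114 to 0.771. None of the 6 ratios passed after adjustment. A ratio that alone reached the smallest p could not pass after adjustment over 6, so this outcome decides nothing for Dll4 to Dll1.

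Levels of the different genes were compared per kilobase of exon, with exon lengths from GENCODE M21. On this scale Notch2 was the most abundant in both groups, at 32.1 ± 2.24 CPM per kilobase after naphthalene and 37.6 ± 1.70 in controls (SD, n = 4 per group). It was followed in controls by Jag1 at 26.4 and Hes1 at 24.3 CPM per kilobase, whose ranges overlapped. Dll4, Notch1, Hey1, Notch4 and Notch3 came next at 18.6, 17.8, 17.5, 15.4 and 14.1 CPM per kilobase in controls, each overlapping with its neighbour. Dll1 at 8.17 and Jag2 at 4.28 CPM per kilobase were the lowest in controls, each clear of the gene above it. After naphthalene Dll1, at 13.2 ± 2.54 CPM per kilobase, was the sixth of the 10, and Dll4, at 10.9 ± 5.32 CPM per kilobase, the eighth, with overlapping ranges.

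**Figure D4:**
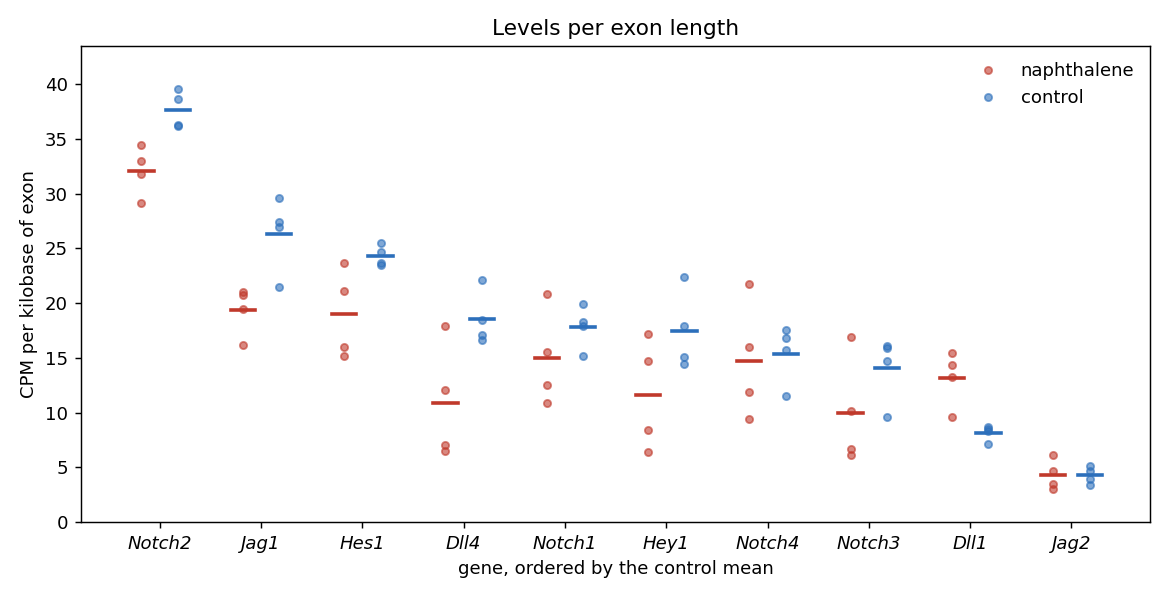
CPM per kilobase of exon (vertical axis, from 0) of the 10 genes, ordered by their control mean, with each library as a point and the group mean as a bar, naphthalene (red) left of control (blue). Notch2 is highest and Jag2 lowest in both groups, and Dll1 is the gene whose naphthalene points lie above its controls.

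The remaining machinery of the pathway was followed with 55 further genes, of which 46 could be tested. Of these 1 rose and 4 fell, or 5 of 46 beside 28.7% of all tested genes, and their median log2 fold change was -0.13. The groups did not overlap for 7 of the 46, beside 28.6% of all tested genes.

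In the nuclear complex, Maml2, a Mastermind co-activator gene, was the 1 of 6 that passed. It stood at 435, 347, 324 and 349 CPM after naphthalene, against 536, 587, 519 and 543 CPM in controls, with no overlap. This was a log2 fold change of -0.59 (SE 0.10, edgeR adjusted p = 0.00246). Rbpj itself averaged 193 ± 17.7 CPM after naphthalene and 219 ± 14.3 CPM in controls and did not pass.

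Of 7 co-repressor genes 1 passed. Tle2, a Groucho-type co-repressor that partners with HES proteins, held 24.9, 21.4, 15.99 and 27.9 CPM after naphthalene, against 34.0, 37.2, 30.8 and 39.96 CPM in controls (log2 fold change -0.65, SE 0.19, edgeR adjusted p = 0.0112). Every naphthalene library was below every control.

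Among 10 turnover and trafficking genes, 2 of the deltex family of ubiquitin ligases fell. Dtx1, both a regulator and a target of Notch in lymphocytes, gave 2.08, 1.43, 0.439 and 1.74 CPM after naphthalene, against 3.85, 3.70, 3.87 and 4.44 CPM in controls (log2 fold change -1.44, SE 0.43, edgeR adjusted p = 0.00762). Dtx3l, whose product partners with PARP9, averaged 55.3 ± 6.05 CPM after naphthalene and 76.5 ± 4.26 CPM in controls (SD, n = 4 per group, log2 fold change -0.47, edgeR adjusted p = 0.00520). B cell markers fell alongside, 8 of 8 tested, and summed to 54.7 to 93.4 CPM after naphthalene and 165 to 220.2 CPM in controls. T cell markers fell in 6 of 7 tested, summing to 24.1 to 40.1 CPM after naphthalene and 61.7 to 67.0 CPM in controls, with Cd28 listed at 0. The part of lymphocytes in the Dtx1 values was not tested.

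Further target genes gave 1 call among 5 tested. Myc, a proto-oncogene that Notch induces in T cells but that many growth signals also induce, was at 16.1, 15.7, 18.9 and 14.3 CPM after naphthalene, against 5.56, 4.50, 3.08 and 4.08 CPM in controls. The groups were far apart, with a log2 fold change of 1.91 (SE 0.19, edgeR adjusted p = 4.94e-05). The targets Nrarp, Heyl, Hey2 and Ccnd1 had log2 fold changes of -0.32 to -0.02 and did not pass.

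The genes that modify or cut receptors and ligands did not pass. That held for 6 glycosyltransferase genes, 4 ubiquitin ligase genes of the ligands and 8 receptor cleavage genes. Neurl1b, a neuralized-type ligase, averaged 18.4 ± 5.63 CPM after naphthalene and 27.2 ± 4.74 CPM in controls (log2 fold change -0.55, SE 0.24, n = 4 per group, edgeR adjusted p = 0.0604), and it passed with DESeq2 (adjusted p = 0.0377), without control 3 and without naphthalene 1. Mib2, another ligase of ligands, had a log2 fold change of -0.28. Pofut1, the enzyme that adds O-fucose to receptors, had a log2 fold change of -0.29 (edgeR adjusted p = 0.0597) and passed with DESeq2 (adjusted p = 0.0462), with upper quartile scaling (0.0439), without control 3 and without naphthalene 1. Eogt, an O-GlcNAc transferase, had a log2 fold change of -0.21 (edgeR adjusted p = 0.0818) and passed with upper quartile scaling (0.0494). Furin, the convertase that makes the first cut of the receptor, had 0.30 and passed without naphthalene 4, and Aph1c, a gamma-secretase subunit, had -0.30.

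**Figure D5:**
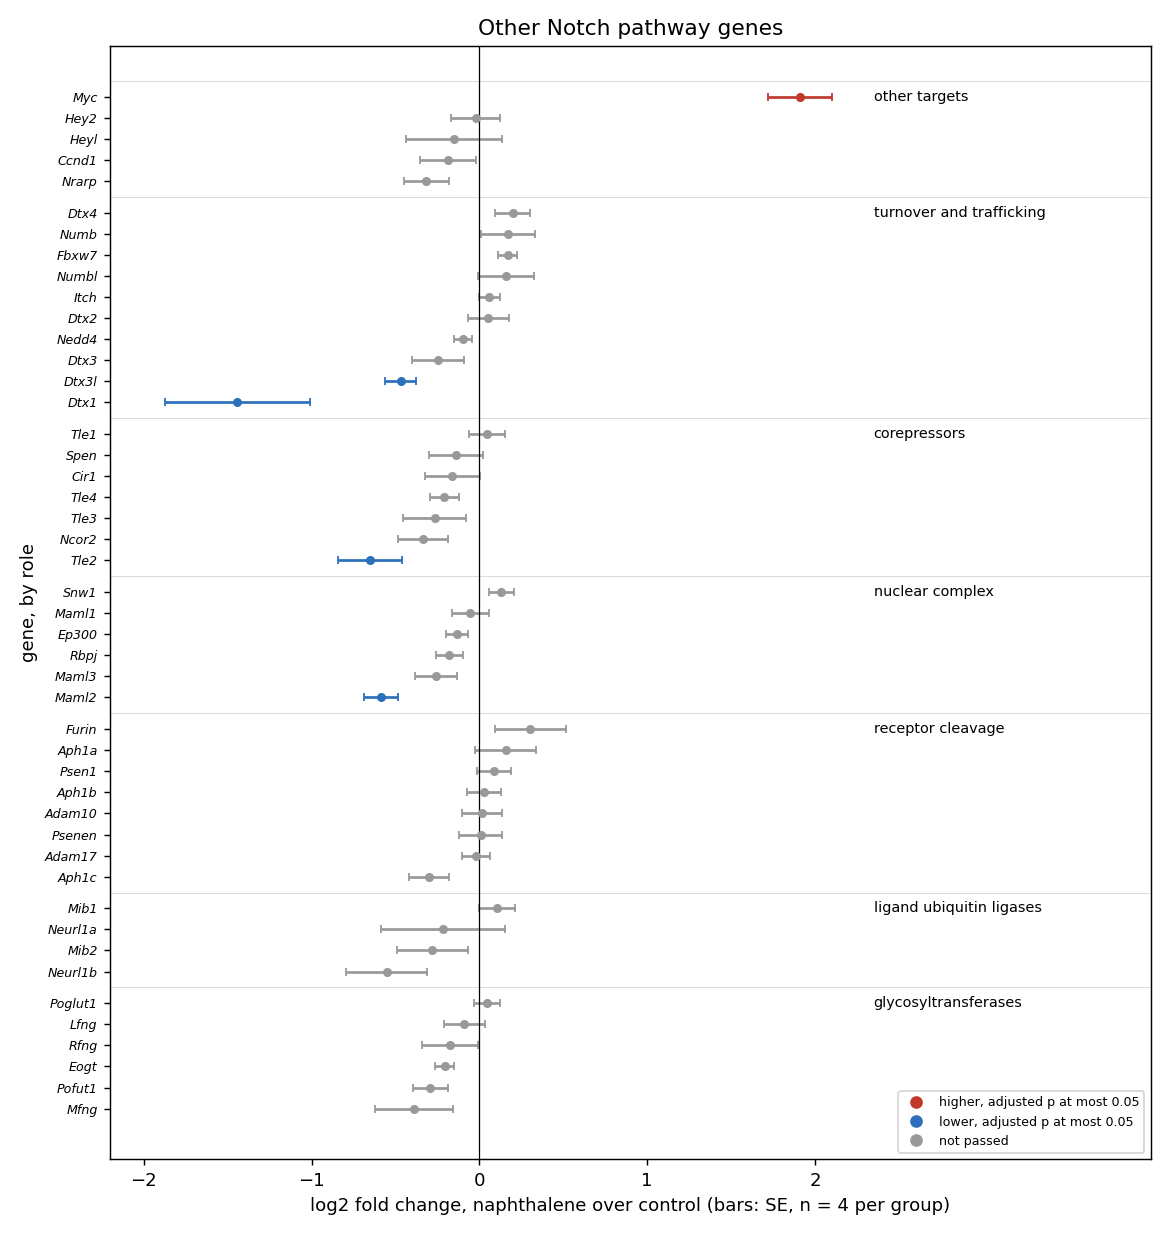
Log2 fold change (horizontal axis, naphthalene over control, bars show the SE, n = 4 per group) of 46 other Notch pathway genes grouped by role, in red where higher, blue where lower and grey where the test was not passed. Myc is the 1 gene in red, and Maml2, Tle2, Dtx1 and Dtx3l are the 4 in blue.

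The genes whose profiles over the 8 libraries lay closest to the 2 genes that passed were found from the mean absolute difference of centred log2 CPM. For Dll1 they were Pvr, Tuft1 and Map6, at 0.06 to 0.07 on the log2 scale. For Jag1 they were Bbs1, Unc5a and Gpr21, at 0.07 each. Since they were chosen for likeness over all 8 libraries, the choice also fixes that their group differences resemble that of their partner, and these are no separate result.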

How the data were processed

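Total RNA of right cranial lung lobes was DNase-treated and sequenced from stranded libraries, per the labels' protocols. The deposited values are raw read counts by gene symbol, 1 column per library. Per the submitters' processing notes the build was mm39 and the tools were Trim Galore 0.6.7 with HISAT2 2.2.1, then featureCounts 2.0.6 and also edgeR 4.2.1, with no role stated. The sources used here do not give the annotation, strand setting or handling of multi-mapping reads. In GENCODE M21, exons of Notch1, Notch3, Dll1 and Dll4 overlap genes on the opposite strand and those of Notch2 a model on the same strand, so reads of these could be included.

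Columns were matched to mice by library name, with 0 columns left over. The test was run with edgeR 4.0.16 under R 4.3.3 (TMM scaling, filterByExpr with minimum count 10 and total 15, quasi-likelihood test, group as the only term), with Benjamini-Hochberg adjustment over 14192 genes and a threshold of 0.05. Standard errors are those of the difference in mean log2 CPM with a prior count of 2, and ratios used CPM plus 0.5. Within a group, pairs of libraries gave chi-square values of 5.73 to 51.4 for each degree of freedom, so each was counted once.

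The members and lists were chosen with earlier results of these data known. Named genes were the 10 members and, per pathway role, up to 4 genes past the threshold or 2 of smallest p where none passed. They also included 3 genes of closest profile for each member that passed, and the first 1 or 2 genes of some marker lists. For the remaining marker lists the first genes are not named. Other names were chosen after their values were seen. Results for 1 listed marker gene are not reported here. The alternatives changed the scaling (RLE, upper quartile), the filter (none, or a minimum CPM of 1 in at least 4 libraries), the model (a replicate block), the tool (DESeq2 1.42.0, voom in limma 3.58.1) and the libraries, each left out in turn.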

Additional observations from a re-analysis of the deposited data

Results flagged for a closer look

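The log2 ratio of Dll4 to Dll1 in control 1 was 1.48, apart from the other controls at 0.86 to 0.96, with a gap of 0.840 of the group's range, above Dixon's critical value. Of 54 groups of 4 values examined this was the 1 found, and chance gives about 1 in 20 groups.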

How the results depend on the processing

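Over all genes 4075 passed (2005 higher, 2070 lower), and 2929 to 5058 with 1 library left out. Dll1 passed under every alternative run, and Jag1 under all but 1, the removal of control 4. Of the 10 members 2 passed, beside 28.7% of all tested genes. They numbered 4 with DESeq2 (27.2% of all genes), 6 with the replicate block (30.7%), 7 without control 3 and naphthalene 1 together (37.5%), and 1 to 7 with 1 library left out (20.6% to 35.5%). The block added Dll4 (adjusted p = 0.00512), Hey1 (0.0345), Notch3 (0.0468) and Hes1 (0.0473) in edgeR, and among the pathway genes named also Pofut1 (0.0324), Mib2 (0.0408) and Neurl1b (0.0473). Those lower numbered 1, against 2 with upper quartile scaling, no filter or voom, 3 with DESeq2, 5 with the block, 6 without control 3 and naphthalene 1, and 0 to 6 with 1 library left out. Those higher stayed at 1 throughout. Of the other pathway genes 5 passed, against 8 with DESeq2, 10 with the block, 13 without control 3 and naphthalene 1, and 5 to 11 with 1 library left out. Of these 4 were lower, against 9 with the block, 12 without both libraries and 4 to 10 with 1 left out, and 1 was higher, against 2 with DESeq2 or no filter and 1 to 3 with 1 left out. Marker genes higher numbered 10, and 6 to 14 with 1 left out. Marker genes lower numbered 43, and 37 to 54 with 1 left out.

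The log2 fold change of Notch4 ranged from -0.30 to 0.10 and that of Jag2 from -0.18 to 0.16 with 1 library left out, and Jag2 was at -0.0025 with upper quartile scaling, -0.0019 with the block and -0.28 without control 3 and naphthalene 1. With 1 library left out the difference in log2 ratio ranged from -0.58 to 0.073 for Hey1 to Hes1, -0.034 to 0.20 for Notch2 to Notch1, -1.81 to -1.25 for Dll4 to Dll1, -0.56 to -0.26 for Jag1 to Jag2, -0.42 to -0.22 for Notch3 to Notch1 and 0.12 to 0.23 for Notch4 to Notch1. The paired sign-flip test of a ratio cannot go below 0.125.

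Libraries with the same replicate number correlated in their deviations from the group means at 0.29, 0.033, 0.18 and -0.093, so the numbers were not taken to pair the mice, and naphthalene 2 correlated best with control 1. The causes of these changes were not tested. The lowest count of a member in any library was 233, and the part of depth in the member values was not tested.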

Other observations

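Further ligand and target genes were too low to test, and their counts are named here after being seen. Dll3, a Delta-like protein gene of neuroendocrine cells, had 2, 4, 7 and 1 reads in naphthalene libraries 1 to 4 and 0 in each control. Dlk2, a Delta-like protein gene, had 6, 19, 20 and 6 reads after naphthalene, against 8, 7, 4 and 11 in controls. The Notch target Hes5 had 3 to 5 reads after naphthalene and 1 to 4 in controls, and Hes7 had 1 to 5 after naphthalene and 0 to 3 in controls. Ncstn and Psen2, which encode gamma-secretase subunits, Hes6 and Dner were listed at 0 in all 8 libraries, and no level is read from these rows.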
